A study of Mus musculus with 9 samples.

Results

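Nestin and its partner intermediate filament genes were followed across 3 sorted populations of mouse neuroglial progenitors from the third ventricular zone (TVZ), germinal tissue along the third ventricle. The 7 genes named were Nes, Vim, Gfap, Synm, Ina, Nefl and Nefm, matched by symbol to a deposited table of normalized expression with 18329 genes. Of these, 6 were found, and Nefm was not analysed here. All 6 passed the filter on low values, so every member with data was tested.

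All mice carried the Nestin-CFPnuc reporter, a transgene that puts cyan fluorescent protein (CFP) in nuclei under control of the Nestin promoter, on a C57/BL6 background. They were untreated and harvested on postnatal day 1. Flow cytometry for CFP and for CD133, a membrane protein whose gene is Prom1, gave CD133+, Nestin+ and CD133+Nestin+ cells, with 3 libraries each. No mutation is named for any library. The labels do not say whether cells sorted on 1 marker lacked the other, nor whether the libraries stand for different animals or cultures, so the p-values measure the spread between these libraries, which may be technical. Each library also carries a sort number from 1 to 3, equal to its passage number. The comparisons ask which molecular features differ between the sorted progenitors. Values are in CPM, reads of a gene scaled to a common library total, a unit inferred from the table. Group values are means ± SD (n = 3 libraries), and changes are log2 ± SE on the log2(CPM + 1) scale, on which changes of low genes come out too small. Gfap, Synm, Ina and Nefl overlap genes on the opposite strand, and whether the counting used strand is not stated, so their levels are uncertain to that extent.

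Intermediate filaments are rope-like polymers of the cytoskeleton. Nestin does not readily form filaments on its own and is built into filaments with vimentin, while GFAP is the filament protein of astrocytes and of some neural stem cells. Synemin joins such filaments to other structures. Alpha-internexin and the neurofilament proteins build the filaments of neurons.

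The libraries did not all behave alike. The listed genes held 65.9% to 87.6% of the reads that CPM is scaled to, and the inferred totals were 29.1 to 35 M reads. On the second principal component CD133+Nestin+ replicate 2 lay at 108 and the other 8 libraries between -57.1 and 19.3. Libraries with the same number deviated together from their group means, so fits with the number as a block are printed where they change the call of a member. For the listed genes and markers only some of these changes are printed. CD133+ libraries also held more RNA of vessel, connective tissue and immune genes. The 4 endothelial markers summed to 330 to 648 CPM in CD133+ cells, 14.5 to 24.7 in Nestin+ and 26.9 to 35.6 in CD133+Nestin+ cells. The endothelial gene Cldn5 was under the level of 3 reads in Nestin+ replicate 3. The 7 mural and fibroblast markers summed to 851 to 1651, 71.4 to 105 and 113 to 185 CPM in the same order, and the 8 microglia and macrophage markers to 860 to 2482, 33.4 to 96.2 and 36.3 to 290 CPM. In bulk RNA, fewer cells of a type and less RNA per cell cannot be told apart.

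Nes encodes nestin, the filament protein of neural progenitors, and its promoter drove the sorting reporter, so its difference checks the labels and is not a finding. The gene lies on chromosome 3 (87971078 to 87980451, plus strand, GRCm38). Nes stood at 39.5, 56.9 and 57.3 CPM in CD133+ libraries, at 195, 157 and 166 in Nestin+ and at 210, 172 and 212 in CD133+Nestin+ libraries, replicates 1 to 3. Every library sorted on CFP was above every CD133+ library, and the ranges of the CFP-sorted groups overlapped. The log2 change was 1.75 ± 0.24 in Nestin+ and 1.94 ± 0.24 in CD133+Nestin+ against CD133+ cells. Nes RNA was also present in CD133+ cells, at a mean of 51.2 ± 10.1 CPM. Prom1, the other sort marker, stood at a mean of 169 ± 20 CPM in CD133+ cells, 51 ± 10.3 in Nestin+ and 147 ± 32.7 in CD133+Nestin+ cells. Of 4 tanycyte markers, genes of the radial glia-like cells that line the third ventricle, 3 rose in Nestin+ against CD133+ cells. Of all genes, 2.45% were called as higher there. The tanycyte markers summed to 50.2 to 62.1, 267 to 319 and 80.8 to 164 CPM in CD133+, Nestin+ and CD133+Nestin+ libraries.

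The sequence before the start of Nes is shown because the Nestin promoter defined the sort, with those of Gfap and Ina, the partners with the largest fitted decrease and increase in Nestin+ against CD133+ cells. These are RefSeq windows of up to 250 bases before the annotated start (GRCm38.p6), on the strand of each gene, and not the sequence of the reporter construct, which was not used here. They lie at chr3:87970843-87971077 (plus strand), chr11:102897201-102897450 (minus strand) and chr19:47014431-47014680 (plus strand). The Nes window is cut to 235 bases where a GENCODE exon begins, and the Gfap window lies outside exons but within the GENCODE span of the gene, which has a longer transcript. Capitals mark matches on either strand to 4 short motifs. They are TATAA (the TATA box), CCAAT (the CCAAT box), GGGCGG (the GC box of Sp factors) and TTCNNNGAA (the STAT motif).
Nes: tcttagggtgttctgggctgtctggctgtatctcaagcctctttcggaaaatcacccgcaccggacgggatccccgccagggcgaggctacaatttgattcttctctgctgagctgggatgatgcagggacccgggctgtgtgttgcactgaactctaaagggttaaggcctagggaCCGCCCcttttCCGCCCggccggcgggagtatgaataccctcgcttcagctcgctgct
Gfap: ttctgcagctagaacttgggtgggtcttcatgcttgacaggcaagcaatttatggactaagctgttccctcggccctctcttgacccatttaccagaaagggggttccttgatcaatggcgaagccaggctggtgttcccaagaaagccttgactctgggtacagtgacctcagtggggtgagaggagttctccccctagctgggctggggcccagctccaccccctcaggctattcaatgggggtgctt
Ina: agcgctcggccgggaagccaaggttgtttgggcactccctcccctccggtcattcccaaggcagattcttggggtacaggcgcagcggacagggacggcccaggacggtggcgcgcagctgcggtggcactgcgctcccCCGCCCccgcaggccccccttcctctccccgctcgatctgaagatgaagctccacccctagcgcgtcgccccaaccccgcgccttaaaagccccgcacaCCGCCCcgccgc
The Nes and Ina windows each hold the GC box 2 times, on the strand opposite to the gene, with no overlap between motifs. The Gfap window holds none of the 4 motifs. Among 32851 RefSeq windows of 250 bases, the GC box occurs in 32.7%, the CCAAT box in 33.8%, the TATA box in 22.8% and the STAT motif in 7.02%. These are matches of letters and not sites of a factor.

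Of the 5 partner genes, 1 rose with Nes in Nestin+ against CD133+ cells (Ina) and 0 fell, where limma called 11.9% of all 16143 genes, 2.45% as higher and 9.42% as lower. In CD133+Nestin+ against CD133+ cells 0 of 5 partners were called, where 2.42% of all genes were (0.297% higher and 2.12% lower). In CD133+Nestin+ against Nestin+ cells 0 of 5 were called, where 3.13% of all genes were (2.87% higher and 0.254% lower). The groups did not overlap for 3 of 5 partners in the first comparison, 0 in the second and 2 in the third, as for 33%, 17.5% and 17.3% of all genes. At an unadjusted p under 0.05, Gfap, Synm and Ina passed in the first comparison, none in the second, and Synm and Ina in the third. With the replicate number as a block, limma called Ina as higher and Gfap and Synm as lower in Nestin+ than in CD133+ cells (19.2% of all genes called). The block also called Gfap as lower in CD133+Nestin+ than in CD133+ cells (4.81% of all genes called) and Ina as lower in CD133+Nestin+ than in Nestin+ cells (6.09%). The partners' median log2 change was -0.12, -0.04 and 0.56 in the 3 comparisons, beside -0.02, -0.06 and -0.04 over all genes. The F test over the 3 groups, which asks whether a gene differs anywhere, called 9.5% of all genes. It gave a limma adjusted p of 0.0499658 for Ina, 0.126 for Synm, 0.204 for Gfap, 0.588 for Vim and 0.629 for Nefl. The F test call of Ina was lost without any library of CD133+ or Nestin+ cells or CD133+Nestin+ replicate 3 (limma adjusted p = 0.0573 to 0.18). With the block the F test also called Gfap (limma adjusted p = 0.00143) and Synm (limma adjusted p = 0.0319).

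**Figure D1:**
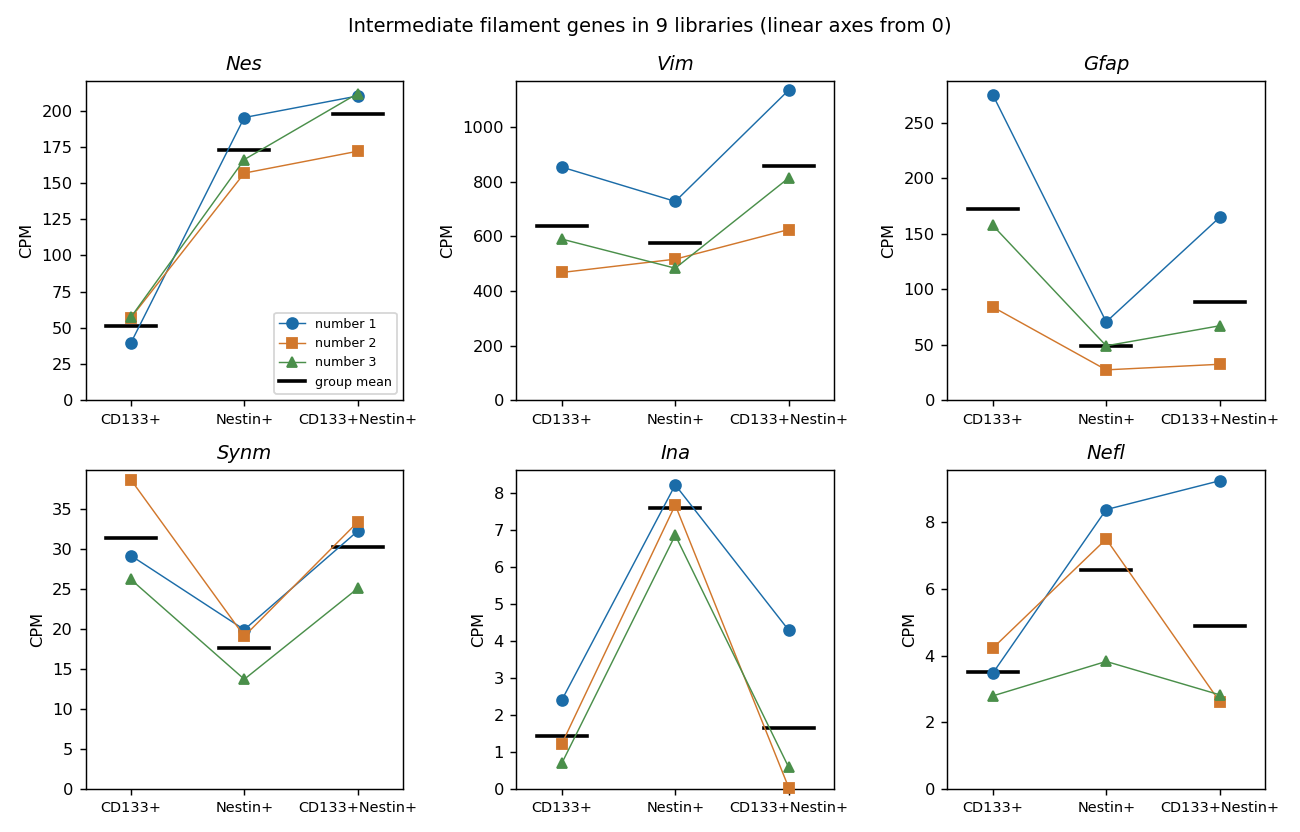
CPM of 6 intermediate filament genes in each of 9 libraries, on linear axes from 0, with 1 panel per gene. Points are libraries, thin lines join libraries of the same sort number and black bars are group means. Nes is low in CD133+ libraries alone, Gfap is lower in the CFP-sorted library of every number, and Ina is high in Nestin+ libraries.

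Vim, which encodes vimentin, the main copolymer of nestin, was abundant in all 3 populations and showed no called difference. The gene lies on chromosome 2 (13573927 to 13582826, plus strand). Vim stood at 854, 468 and 590 CPM in CD133+ libraries, at 729, 517 and 484 in Nestin+ and at 1137, 625 and 814 in CD133+Nestin+ libraries, replicates 1 to 3. The ranges of all 3 groups overlapped, and the library numbered 1 was the highest in each. The log2 change from CD133+ to Nestin+ cells was -0.12 ± 0.34 (limma adjusted p = 0.889, 95% interval -0.87 to 0.62), and its sign turned under median centring (0.0103) and without CD133+ replicate 1 (0.11). An interval of that width does not show equal levels, but its upper end lies below the change of 1.75 measured for Nes. From CD133+ to CD133+Nestin+ cells Vim differed by 0.43 ± 0.34 (limma adjusted p = 0.66) and from Nestin+ to CD133+Nestin+ cells by 0.56 ± 0.34 (limma adjusted p = 0.56). In both of these comparisons all 3 numbers had the higher value in CD133+Nestin+ cells, and the calls were not reached with the block either (limma adjusted p = 0.216 and 0.113).

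Gfap, the astrocyte filament gene, had its lowest values in Nestin+ cells, and its decrease there against CD133+ cells was called with the replicate block but not in the unweighted fit of all 9 libraries without it. It lies on chromosome 11 (102887336 to 102900912, minus strand). Gfap stood at 275, 83.9 and 157 CPM in CD133+ libraries, at 70.5, 27.2 and 48.9 in Nestin+ and at 165, 32.3 and 66.9 in CD133+Nestin+ libraries, replicates 1 to 3. All Nestin+ libraries lay below all CD133+ libraries, and the CD133+Nestin+ libraries overlapped with both. Within each group the library numbered 1 was the highest and the library numbered 2 the lowest. Means were 172 ± 96.4, 48.9 ± 21.6 and 87.9 ± 68.6 CPM, a ratio of 3.52 between CD133+ and Nestin+ cells.

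The change of Gfap from CD133+ to Nestin+ cells, -1.73 on the log2 scale, had an SE of 0.59 and limma adjusted p = 0.0879 without the block. With the block the SE was 0.21 and limma adjusted p = 0.000508. Within the numbers 1, 2 and 3 the difference was -1.95, -1.59 and -1.67. Without the block the call was reached when CD133+Nestin+ replicate 1 or replicate 2 was left out (limma adjusted p = 0.0278 and 0.0408), with library weights (0.002), with numbers 2 and 3 alone (0.0458) and in the 6 libraries compared (0.0267). Library weights called 4182 genes in this comparison, against 1915 without, and their estimation stopped before its tolerance was reached. In all 9 fits that combined the block with leaving out 1 library limma's adjusted p was 7.79e-05 to 0.0059. The two-sided exact permutation p was 0.1, the smallest value possible with 3 libraries against 3.

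From CD133+ to CD133+Nestin+ cells Gfap changed by -1.10 ± 0.59 (limma adjusted p = 0.49), and with the block by the same amount at limma adjusted p = 0.0178. The differences within numbers were -0.74, -1.35 and -1.22. The blocked call was lost without any of the 3 CD133+ libraries or CD133+Nestin+ replicate 3, at a limma adjusted p of 0.0562 to 0.104, and held without CD133+Nestin+ replicate 2 (limma adjusted p = 0.028). Between CD133+Nestin+ and Nestin+ cells the change was 0.63 ± 0.59 (limma adjusted p = 0.742), with the higher value in CD133+Nestin+ cells for all 3 numbers.

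No other astroglial marker was called as lower with Gfap. Of 11 astroglia and radial glia markers, 1 rose in Nestin+ against CD133+ cells (Slc1a2, an astroglial glutamate transporter), 0 fell and the median log2 change was 0.64. With the block 5 rose, Aldh1l1, Aldoc, Fabp7, Slc1a2 and Slc1a3, and 0 fell. Over all genes in this comparison, 2.45% were called as higher and 9.42% as lower. With the block 978 of all 16143 genes were called as higher and 2116 as lower, 19.2% in either direction. Slc1a3, another glutamate transporter of radial glia and astrocytes, stood at 2038 ± 1073 CPM in CD133+ and 4604 ± 1335 in Nestin+ libraries. The summed markers ranged over 2736 to 8468 CPM in CD133+ cells, 9232 to 17176 in Nestin+ and 5001 to 11310 in CD133+Nestin+ cells. Ependymal markers did move with Gfap between Nestin+ and CD133+ cells, with all 7 lower in Nestin+ cells and sums of 910 to 1958, 135 to 167 and 869 to 1139 CPM in CD133+, Nestin+ and CD133+Nestin+ libraries. In CD133+Nestin+ against CD133+ cells only Mcidas fell among them, and in CD133+Nestin+ against Nestin+ cells all 7 rose. Of all genes, 2.12% were called as lower in the former comparison and 2.87% as higher in the latter. Between CD133+ and Nestin+ cells, markers of non-neural cells fell too, with all 4 endothelial, 6 of 7 mural and fibroblast and all 8 microglia markers called, at the sums given above. The part of these cell types in the Gfap difference was not tested.

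Synm, which encodes synemin, a filament protein that binds vimentin and the dystrophin-associated proteins, was lowest in Nestin+ cells. It lies on chromosome 7 (67730160 to 67759742, minus strand). Synm stood at 29.1, 38.6 and 26.2 CPM in CD133+ libraries, at 19.9, 19.1 and 13.7 in Nestin+ and at 32.2, 33.3 and 25 in CD133+Nestin+ libraries, replicates 1 to 3. Each Nestin+ library lay below each library of the other groups, which overlapped with each other. Against CD133+ cells the change in Nestin+ cells was -0.80 ± 0.26 (limma adjusted p = 0.0782), and with the block limma adjusted p = 0.0202. Leaving out CD133+Nestin+ replicate 2 gave limma adjusted p = 0.047 without the block, and library weights, which called 4182 of all genes, 0.029. With the block the call was lost without CD133+ replicate 2 or 3 or any Nestin+ library (limma adjusted p = 0.0556 to 0.0926). Between CD133+Nestin+ and Nestin+ cells the difference was 0.76 ± 0.26 (limma adjusted p = 0.2, and 0.0566 with the block), higher in CD133+Nestin+ cells for all 3 numbers. Between CD133+Nestin+ and CD133+ cells it was -0.04 ± 0.26 (95% interval -0.62 to 0.54), and its sign turned under median centring (0.0858), quantile normalization (0.0523) and library weights (0.0758), and without CD133+ replicate 2 or CD133+Nestin+ replicate 3 (0.11 and 0.08).

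Ina, which encodes alpha-internexin, a filament protein of young neurons, was highest in Nestin+ cells and low in both groups sorted on CD133. It lies on chromosome 19 (47014698 to 47025327, plus strand). Ina stood at 2.4, 1.22 and 0.692 CPM in CD133+ libraries, at 8.21, 7.67 and 6.85 in Nestin+ and at 4.29, 0.0334 and 0.583 in CD133+Nestin+ libraries, replicates 1 to 3. Every Nestin+ library was above every other library. The value of CD133+Nestin+ replicate 2 corresponds to 1 read, under the level of 3 reads, and the Nestin+ values to 222 to 239 reads, by the inferred value of a read.

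In Nestin+ against CD133+ cells Ina rose by 1.87 ± 0.53 (limma adjusted p = 0.0443, and 0.0112 with the block), with a ratio of mean CPM of 5.28. The unblocked call lay close to the threshold. It was lost with a pseudocount of 0.1 (limma adjusted p = 0.181), with no filter on low values (0.0542), and without any Nestin+ library, CD133+ replicate 2 or 3, or CD133+Nestin+ replicate 3 (0.0593 to 0.16). With the block it was lost without CD133+ replicate 3, Nestin+ replicate 2 or Nestin+ replicate 3 (limma adjusted p = 0.0590 to 0.0719). In the authors' deposited table the same comparison had a ratio of 5.28 and a false discovery rate of 0.357. CD133+Nestin+ cells had less Ina than Nestin+ cells by -2.06 ± 0.53 (limma adjusted p = 0.0698, and 0.0179 with the block), lower for all 3 numbers. Without CD133+Nestin+ replicate 1 the change was -2.74 (limma adjusted p = 0.00349), and the blocked call held without CD133+Nestin+ replicate 2 (limma adjusted p = 0.0206). That blocked call was lost without CD133+Nestin+ replicate 3, Nestin+ replicate 2 or Nestin+ replicate 3 (limma adjusted p = 0.076 to 0.134). Between CD133+Nestin+ and CD133+ cells Ina differed by -0.19 ± 0.53 (limma adjusted p = 0.915, 95% interval -1.36 to 0.99), and without CD133+Nestin+ replicate 2, the library with 1 read, by 0.31.

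Nefl, the light neurofilament subunit, lies on chromosome 14 (68083863 to 68089095, plus strand) and overlaps Nefm on the opposite strand in GENCODE. Nefl stood at 3.47, 4.22 and 2.79 CPM in CD133+ libraries, at 8.38, 7.5 and 3.82 in Nestin+ and at 9.24, 2.62 and 2.82 in CD133+Nestin+ libraries, replicates 1 to 3. All groups overlapped. In Nestin+ against CD133+ cells the difference was 0.71 ± 0.45 (limma adjusted p = 0.414, 95% interval -0.28 to 1.69), higher in Nestin+ cells for all 3 numbers. Library weights, which called 4182 of all genes there, gave limma adjusted p = 0.049. The high value of CD133+Nestin+ replicate 1 decided the sign against CD133+ cells, which was 0.23 ± 0.45 with that library and -0.26 without it. Between CD133+Nestin+ and Nestin+ cells Nefl differed by -0.48 ± 0.45 (limma adjusted p = 0.742).

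Some markers of other neural lineages moved with Ina between Nestin+ and CD133+ cells. Of 9 tested neuronal and neuroblast markers 4 rose in Nestin+ against CD133+ cells (Dcx, Snap25, Elavl4 and Map2), and 7 with the block. In this comparison 2.45% of all genes were called as higher. With the block 978 of all 16143 genes were called as higher and 2116 as lower, 19.2% in either direction. The 10 neuronal markers in the table summed to 202 to 277 CPM in CD133+ cells, 467 to 599 in Nestin+ and 284 to 364 in CD133+Nestin+ cells. Of 7 oligodendrocyte precursor markers 6 rose, with sums of 111 to 283, 1294 to 1661 and 372 to 941 CPM in the same order. Leaving out 1 library gave 2 to 5 neuronal and 4 to 7 precursor markers. In CD133+Nestin+ against Nestin+ cells 0 neuronal and 3 precursor markers were called as lower, beside 0.254% of all genes. Slc17a6 in Nestin+ replicate 3 was under the level of 3 reads, and Sox10 in CD133+ replicate 2 was at about that level. The part of these cells in the levels of Ina and Nefl was not tested.

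**Figure D2:**
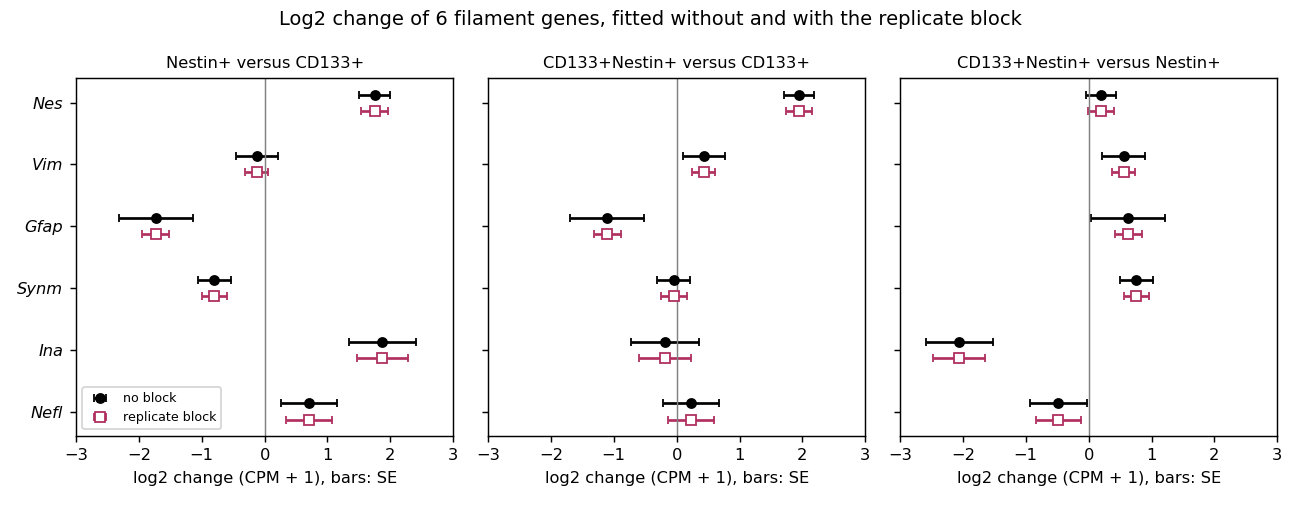
Log2 change of the 6 filament genes in each pairwise comparison, on a linear axis of log2(CPM + 1) differences. Points are fitted changes and bars their SE, black without and red with the replicate block. The block narrows the bar of Gfap from 0.59 to 0.21, while the fitted changes are the same.

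Because nestin is built into filaments with its partners, each partner was set against Nes in the same library. The ratio of Vim to Nes CPM was 21.6, 8.22 and 10.3 in CD133+ libraries, 3.73, 3.29 and 2.91 in Nestin+ and 5.41, 3.64 and 3.84 in CD133+Nestin+ libraries, replicates 1 to 3. The CD133+ libraries lay above all others. The ratio of Gfap to Nes was 6.96, 1.47 and 2.75 in CD133+ libraries, but 0.361, 0.174 and 0.294 in Nestin+ and 0.783, 0.188 and 0.316 in CD133+Nestin+ libraries. Synm to Nes had a mean of 0.624 ± 0.148 in CD133+, 0.102 ± 0.0196 among Nestin+ and 0.155 ± 0.0378 in CD133+Nestin+ libraries. For Ina to Nes the CD133+ and Nestin+ groups overlapped, at means of 0.0314 ± 0.0258 and 0.044 ± 0.0042. Nefl to Nes was 0.0878, 0.0742 and 0.0487 in CD133+ libraries, 0.0429, 0.0478 and 0.023 for Nestin+ and 0.044, 0.0152 and 0.0133 for CD133+Nestin+ libraries, with the CD133+ libraries above all others by a narrow margin. These ratios hold the sort marker itself and are given with no test. Nes was higher in every CFP-sorted library than in every CD133+ library. A gene of equal CPM in all libraries would therefore also have its highest ratios in CD133+ libraries. The share of all genes whose ratio separates in this way was not computed.

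**Figure D3:**
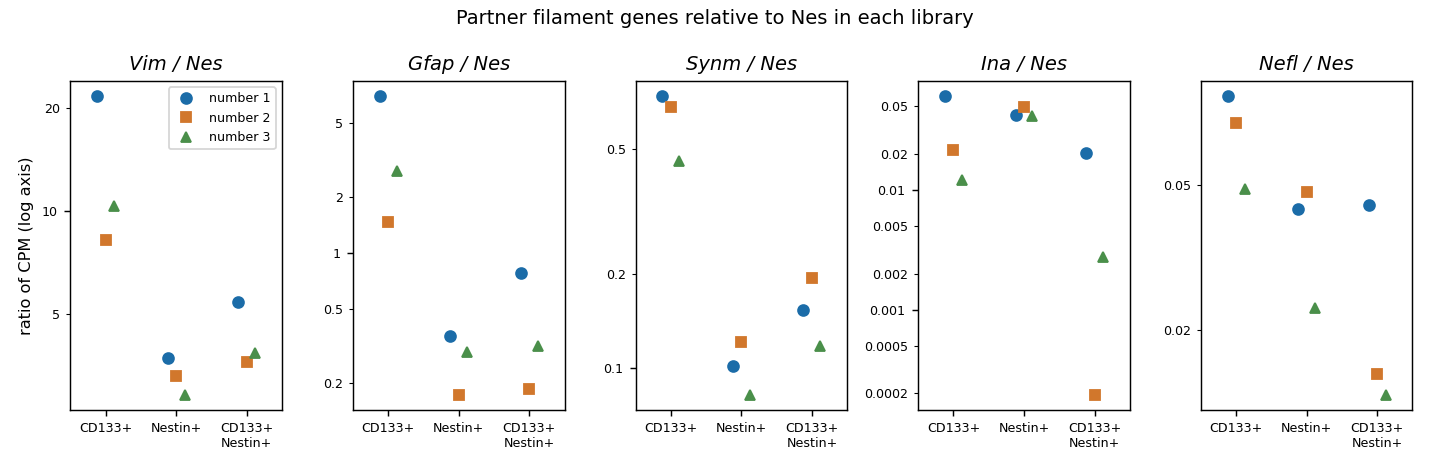
Ratio of the CPM of each partner filament gene to that of Nes in every library, on log axes with 1 panel per partner. Symbols mark the sort number. For Vim, Gfap, Synm and Nefl all 3 CD133+ libraries lie above the 6 CFP-sorted libraries, and for Ina the lowest are CD133+Nestin+ replicates 2 and 3. Nes is the denominator and is low in CD133+ libraries, so a gene of equal CPM throughout would separate likewise.

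Levels of different genes were compared as CPM per kilobase of merged exon length. Vim was the highest member in every group, at 134 ± 41.6 CPM per kilobase in CD133+ cells, 122 ± 28 in Nestin+ and 181 ± 54.5 in CD133+Nestin+ cells. The next place changed between the populations, but this order includes Nes, whose reporter defined the sort, and was not tested. In CD133+ libraries Gfap (40.8 ± 22.9 CPM per kilobase, range 19.9 to 65.2) stood above Nes (range 6.16 to 8.93). In Nestin+ libraries Nes (26.9 ± 3.12, range 24.5 to 30.4) stood above Gfap (range 6.46 to 16.7). In CD133+Nestin+ libraries Nes (30.9 ± 3.52) and Gfap (20.8 ± 16.3) overlapped. Synm followed at 3.95, 2.21 and 3.81 CPM per kilobase in CD133+, Nestin+ and CD133+Nestin+ libraries, with Ina (0.443, 2.34 and 0.504) and Nefl (1.03, 1.94 and 1.45) near or below it. In Nestin+ libraries the ranges of Synm, Ina and Nefl overlapped.

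Besides the sort, the number of the library went with Vim and Gfap. The library numbered 1 was the highest in all 3 groups for 3 of the 6 members (Vim, Gfap and Ina), as it was for 17.7% of all genes. In a comparison added after the values were seen, number 1 was set against the mean of numbers 2 and 3 in a fit that also held the groups. Gfap was higher in number 1 by 1.33 ± 0.18 (limma adjusted p = 0.00441) and Vim by 0.64 ± 0.16 (limma adjusted p = 0.0286), where 13.4% of all genes were called, 5.58% as higher. Nes differed by -0.04 ± 0.18 (limma adjusted p = 0.91). The listed genes held 87.3% to 87.6% of the total that CPM is scaled to in libraries numbered 1, and 65.9% to 81% in the others. The part of this share in the differences by number was not tested. The number stands for both the sort and the passage in the labels, and these cannot be told apart.

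Of 23 other intermediate filament genes listed, 8 were tested, and in Nestin+ against CD133+ cells 0 rose and 1 fell, with a median log2 change of 0.14. A count of 1 in 8 lies near the 11.9% called over all genes. That gene was Lmntd1, which carries a lamin tail domain, at 6.74 ± 3.18 CPM in CD133+ cells, 1.29 ± 0.76 in Nestin+ and 6.53 ± 1.81 in CD133+Nestin+ cells. Its change was -1.75 ± 0.41 (limma adjusted p = 0.0169), and the call was lost without Nestin+ replicate 1 or CD133+ replicate 2. Lmntd1 was higher in CD133+Nestin+ than in Nestin+ cells by 1.75 ± 0.41 (limma adjusted p = 0.0437), but that call held only in the fits without CD133+ replicate 2 or CD133+Nestin+ replicate 1 when single libraries were removed, and was lost with a pseudocount of 0.1 or no filter. Lmna, which encodes the A-type nuclear lamins, stood at 57.9 ± 17.5, 35.3 ± 10.2 and 68.3 ± 25.7 CPM in the same order. It was not called without the block, except with library weights between Nestin+ and CD133+ cells, and with the block was called as lower in Nestin+ than in CD133+ (limma adjusted p = 0.023) and CD133+Nestin+ cells (limma adjusted p = 0.017). With the block 2 of the 8 genes were called in each of these comparisons, where 19.2% and 6.09% of all genes were.

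Of 8 tested linkers and partners of filaments, 0 were called in each comparison, at a median of 0.02 between Nestin+ and CD133+ cells. At an unblocked limma adjusted p = 0.0603, Plec, which encodes the linker plectin, differed by -1.15 ± 0.35 between Nestin+ and CD133+ cells. Its levels were 191 ± 50 CPM in CD133+ cells, 87.3 ± 31.9 in Nestin+ and 201 ± 79 in CD133+Nestin+ cells. With the block 1 of the 8 rose and 1 fell in Nestin+ against CD133+ cells, where 19.2% of all genes were called. In CD133+Nestin+ against Nestin+ cells 2 of the 8 rose with the block, where 6.09% of all genes were called. Plec was lower with the block in Nestin+ than in both other groups (limma adjusted p = 0.0122 and 0.0257). Dtna, which encodes alpha-dystrobrevin, was higher with the block in Nestin+ than in CD133+ cells (0.78, limma adjusted p = 0.0204). Without CD133+Nestin+ replicate 2, Plec and Dtna were called between Nestin+ and CD133+ cells without the block, as was Plec without Nestin+ replicate 1, Dtna with median centring and both with library weights. Eppk1, another plakin gene, was higher with the block in CD133+Nestin+ than in Nestin+ cells (limma adjusted p = 0.0159).

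Of 14 tested kinases and turnover genes of filaments, 2 fell in Nestin+ against CD133+ cells and 0 rose, at a median of -0.15, a count near the 9.42% of all genes called as lower. They were the proteases Capn1 (-1.75 ± 0.42, limma adjusted p = 0.0201) and Casp6 (-0.97 ± 0.26, limma adjusted p = 0.0327), a caspase that can cut filament proteins. Casp6 stood at 60.3 ± 6.56 CPM in CD133+ and 30.7 ± 7.07 in Nestin+ libraries, and Capn1 at 8.12 ± 3.85 and 1.75 ± 1.27. The call of Capn1 did not survive leaving out CD133+ replicate 1 or Nestin+ replicate 2 or 3, and Casp6 lost its call without any CD133+ library or Nestin+ replicate 1 or 2. With the block, and with library weights, Cdk1, the mitotic kinase, also fell and Trim32, a ubiquitin ligase gene, rose. The block thus called 1 of 14 as higher and 3 as lower, where 19.2% of all genes were called in either direction. In the other comparisons 0 of 14 were called. With the block 1 of 14, Capn1, was higher in CD133+Nestin+ than in Nestin+ cells (limma adjusted p = 0.0257), where 6.09% of all genes were called.

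Of 15 regulator genes, all of them transcription factor genes with roles at Nes, Gfap or glial genes except Zfp36l1, which encodes an RNA-binding protein of mRNA decay, 3 rose in Nestin+ against CD133+ cells and 0 fell, at a median of 0.55, beside 2.45% of all genes called as higher. Pou3f1, a class III POU factor, stood at 1.14, 0.46 and 1.26 CPM in CD133+ libraries, 7.49, 7.03 and 8.6 in Nestin+ and 3.73, 3.91 and 3.18 in CD133+Nestin+ libraries, with no overlap between groups. It rose by 2.18 ± 0.31 (limma adjusted p = 0.00101), and Pou3f3, of the same class, by 1.85 ± 0.28 (limma adjusted p = 0.0016). Hes5, a Notch target of neural progenitors, rose by 3.01 ± 0.81 (limma adjusted p = 0.0332), a call lost without CD133+ replicate 2 or 3 or Nestin+ replicate 2 or 3. In CD133+Nestin+ against CD133+ cells 0 of 15 were called, and with the block Pou3f1 (1.26) and Pou3f3 (1.16) were, at limma adjusted p = 0.038 and 0.0304. With the block 4.81% of all genes were called in that comparison. Median centring and quantile normalization also called both, and leaving out CD133+ replicate 3 called Pou3f3. Pou3f2, the class III factor known to act with Sox2 at the neural enhancer of Nes, stood at 72.8 ± 17, 77.5 ± 17.2 and 66.1 ± 5.57 CPM, and Sox2 at 63.7 ± 16.8, 95.2 ± 30.6 and 73.3 ± 26.4 CPM. Groups overlapped for both.

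**Figure D4:**
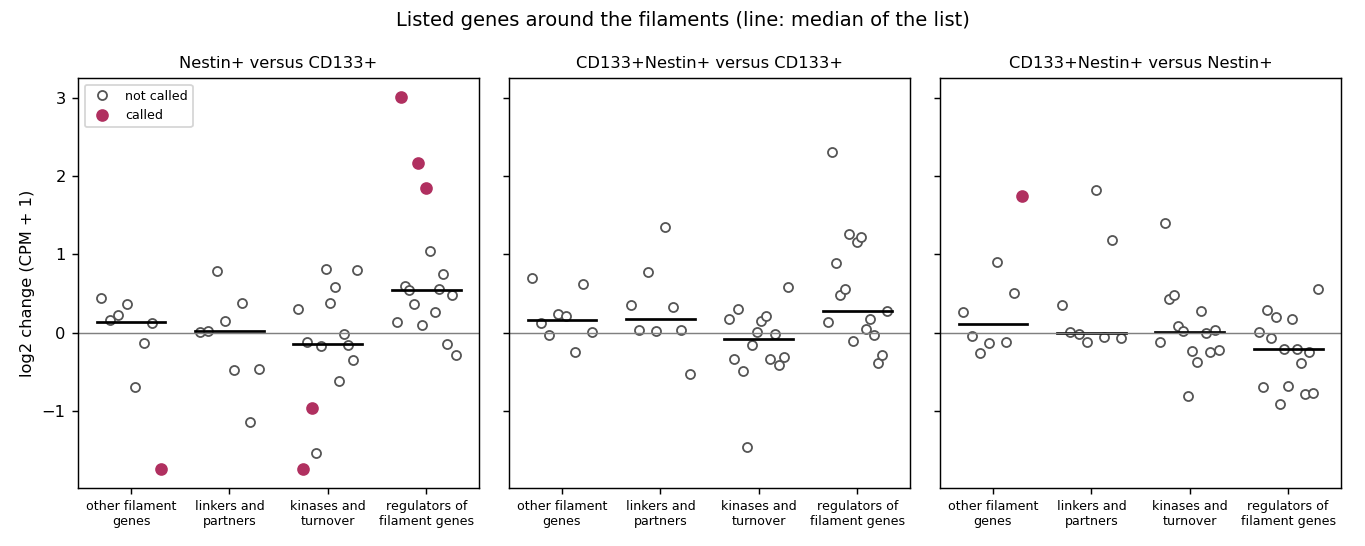
Log2 change of every tested gene in 4 lists around the filaments, in the 3 pairwise comparisons. Each circle is a gene, filled where limma's adjusted p without the block was under 0.05, and black lines are list medians. Pou3f1, Pou3f3 and Hes5 are the filled circles above 0 in Nestin+ versus CD133+, and Lmntd1 is the 1 filled in CD133+Nestin+ versus Nestin+.

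The genes whose pattern was most like Nes, Vim, Gfap and Nefl were ranked by Pearson's r of log2(CPM + 1) over the 9 libraries, among 9367 genes with a mean of at least 10 CPM and no predicted-gene symbol. Libraries share their number and sort, so r is a description. Nes was most like Asb4 (r = 0.979), Pamr1 (0.965), Chpt1 (0.949) and Armh4 (0.946). Its r with the partners was 0.216 for Vim, -0.596 for Gfap, -0.383 for Synm, 0.281 for Ina and 0.396 for Nefl. Asb4 stood at 14.8 to 17.1 CPM in CD133+ and 33.7 to 37.2 in the CFP-sorted libraries.

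Vim was most like Lyplal1 (r = 0.946), Pgk1-rs7 (0.938), Jpt2 (0.937) and Aldoart1 (0.926), and Gfap most like Trmt112-ps2 (0.972), Hexa (0.97), Ctsb (0.967) and Ftl1-ps1 (0.958). Pgk1-rs7, Aldoart1, Trmt112-ps2 and Ftl1-ps1 are copies of other genes whose reads could be divided with their parents, so their levels are uncertain. Ctsb stood at 1072 to 2103 CPM in CD133+ cells, 497 to 989 in Nestin+ and 470 to 1200 in CD133+Nestin+ cells. Nefl was most like Klhl28 (r = 0.915), Cdk14 (0.913), Iqgap2 (0.91) and Uggt1 (0.888). Among the other members Nefl was most like Ina (r = 0.792).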

How the data were processed

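RNA from 9 sorted libraries (3 groups of 3) was read on a HiSeq instrument, per the labels. Tools listed, with no role or order, in the submitters' processing notes are STAR 2.5.3a, bcl2fastq, limma and Partek 8.0, with build mm10. Read assignment, annotation and strand use are not stated. Positions, exon lengths and overlaps are from GENCODE M21 (GRCm38). The deposited values were taken as CPM made by the authors, inferred from low values: 1 read was worth 0.0286 to 0.0344 CPM, above an offset of 0.0001. Within a tolerance of 0.02 reads 43% to 59.3% of low values were whole, so no count test was run. A level of 3 reads was 0.0857 to 0.103 CPM, which covers counting error only. The authors' deposited table gave p-values, false discovery rates and ratios, per the file headers.

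Values were fitted as log2(CPM + 1) for the 16143 genes that reached 1 CPM in 3 or more libraries, with 3 group means in limma 3.58.1 (R 4.3.3), trended and robust priors, and Benjamini-Hochberg adjustment over all genes at 0.05. A gene is called when it passes, and unless the block is named the fit has none. When a library was left out the filter was applied again. Number pairing was taken from the data: deviations from group means correlated at 0.204 to 0.73 in 9 same-number pairs, against -0.527 to 0.314 in the 18 others. Deviations within a group cancel out, so positive same-number values pull the others down and the ranges are not independent. The procedure was tested on simulated data. Members and lists were chosen with earlier results of these data known. The 7 members and Prom1 were always named, with up to 5 called members of each list by smallest F test p and, for Nes, Vim, Gfap and Nefl, the 4 genes of highest r. Genes called only under an alternative, Zfp36l1, and Slc1a3, Lmna, Pou3f2, Sox2, Rbfox3 and Stmn2, were named after their values were seen. Sequences are from RefSeq, and the windows of 5 members were found, those of Vim and Synm lying in exons of longer transcripts and left out. Alternatives were leaving out each library, the block, no filter, a pseudocount of 0.1, library weights, quantile normalization, median centring, plain priors, and a fit of just the 6 libraries in a comparison. Numbers 2 and 3 alone, number 1 against the others, and the block with each library left out were added after seeing the data. Figures were drawn with matplotlib 3.10.9.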

Additional observations from a re-analysis of the deposited data

How the results depend on the processing

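Nes kept its direction against CD133+ cells under every alternative run, with changes of 1.58 to 1.84 in Nestin+ and 1.77 to 2.04 in CD133+Nestin+ cells when 1 library was left out. With the replicate block limma called 3094 genes in Nestin+ versus CD133+ (1915 without), 776 in CD133+Nestin+ versus CD133+ (390), 983 in CD133+Nestin+ versus Nestin+ (505) and 2656 in the F test over the 3 groups (1534). Library weights, whose estimation stopped before its tolerance was reached, gave 4182, 711 and, in the F test, 3426, and the 6 libraries alone gave 204 in CD133+Nestin+ versus CD133+. Leaving out 1 library gave 1043 to 2764, 97 to 472, 173 to 663 and, in the F test, 863 to 2083 genes. The count fell by more than 1.5 times without CD133+ replicate 2 (1043) or Nestin+ replicate 2 (1168) in the first comparison, without any CD133+ library (97 to 211) or CD133+Nestin+ replicate 3 (236) in the second, and without any Nestin+ library (173 to 279) or CD133+Nestin+ replicate 3 (180) in the third. The split of 395 higher and 1520 lower genes in Nestin+ versus CD133+ became 587 and 1300 with median centring and 696 and 1370 with quantile normalization, shifts of 0.13 and 0.15 (log2) in the median over all genes. In CD133+Nestin+ versus CD133+ the shifts were 0.13 and 0.12. Signs that turned belonged to members that were not called. In Nestin+ versus CD133+, Vim was 0.0103 with median centring, and -0.32 to 0.11 when 1 library was left out. In CD133+Nestin+ versus CD133+, Synm was 0.0858 with median centring, 0.0523 with quantile normalization and 0.0758 with library weights, and -0.16 to 0.11 when 1 library was left out. There, Ina was 0.0546 with quantile normalization and 0.45 with library weights, and -0.87 to 0.31 when 1 library was left out. Nefl was -0.26 with numbers 2 and 3 only, and -0.26 to 0.49 when 1 library was left out. The cause was not tested. The lowest value of any member was that of Ina in CD133+Nestin+ replicate 2, an inferred 1 read, beside 140 in replicate 1 and 20 in replicate 3. The inferred totals of replicates 1 to 3 of this group were 32.6, 30.1 and 34.3 M reads.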

Other observations

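In the authors' deposited table the false discovery rate between Nestin+ and CD133+ cells was 0.0013 for Nes, 0.12 for Gfap, 0.0879 for Synm, 0.474 for Nefl and 0.91 for Vim. For Nestin+ against CD133+Nestin+ cells the authors' deposited table gave a false discovery rate of 0.211 for Synm and 0.216 for Ina.

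The ratio of Gfap to Vim, 2 genes that were not used in the sort, was 0.322, 0.179 and 0.267 in CD133+, 0.0967, 0.0527 and 0.101 in Nestin+ and 0.145, 0.0516 and 0.0822 in CD133+Nestin+ libraries, replicates 1 to 3. All CD133+ libraries lay above all others.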
